A study of Homo sapiens with 2 samples.

Results

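The clustered replication-dependent histone genes were examined on a pair of promoter arrays that had been hybridised with GATA1-immunoprecipitated DNA. A gene was counted when the array annotation gave it a symbol of the HIST1, HIST2, HIST3 or HIST4 series, and 63 of 17279 genes with a usable probe met this rule. The cells were untreated Meg-01, an established human megakaryoblastic leukemia line, with neither a knockdown nor a drug. Chromatin fixed with formaldehyde was precipitated with an antibody to the C-terminus of GATA1 (C-20), and this DNA carried Cy5. Precipitate obtained with normal goat IgG carried Cy3 and was the control on the same spots. The 2 arrays hold different probes, chIP1 for chromosomes 1 to 9 and a portion of 10 and chIP2 for the rest, and every probe was read once, with no replicate and no dye swap. All values below are therefore descriptions without a p-value, dye and antibody cannot be told apart, and precision is bounded by the single reading of each probe.

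Replication-dependent histone genes encode the linker histone H1 and the core histones H2A, H2B, H3 and H4, which package newly made DNA. They lie in clusters, carry almost no introns, are transcribed mainly in S phase, and give transcripts that end in a stem-loop in place of a poly(A) tail. Many H2A and H2B genes are transcribed away from one another from a common short promoter. GATA1 is the zinc finger factor of the erythroid and megakaryocytic lineages, and it recognises a GATA core flanked by A or T before and A or G after. Most clustered histone genes are active in any dividing cell, whereas HIST1H1T, HIST1H2AA, HIST1H2BA and HIST3H3 are known for expression in testis.

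The members comprised 55 genes of HIST1, 4 of HIST2, 3 of HIST3 and 1 of HIST4, which are 6 H1, 16 H2A, 17 H2B, 11 H3 and 13 H4 genes. HIST1 lay in 4 blocks on chromosome 6, parted by gaps of over 200 kb, that held 2, 32, 5 and 16 members. HIST2 and HIST3 lay on chromosome 1 and HIST4H4 on chromosome 12. Coordinates are those printed in the array files, whose genome build is not given in the sources used here. The 63 genes had 944 usable probes, of which 918 were on chIP1 and 26, all of HIST4H4, on chIP2, and none was saturated. Of these probes, 98 were assigned to 2 genes, since 16 pairs of members shared promoter probes, 11 of them an H2A gene with an H2B gene. In addition, HIST4H4 shared probes with H2AFJ, and HIST2H2AB with BOLA1. The log2 IP/IgG values of the member probes had an SD of 0.82, against 0.97 for all probes of either array. Their median Cy5 signal was 562 and their median Cy3 signal 417, near the medians of chIP1 (543 and 412), while negative control spots read 342 and 303 there.

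Promoter sequence was set beside the array values because it separates the histone types. Of the 63 genes, 57 had a promoter in the RefSeq table (GRCh38.p14, 250 bases before to 50 after the start), matched by accession or symbol and not by position. The following stretches are the 200 bases before the start, 5′ to 3′ on the gene's strand, with capitals at every CCAAT box (CCAAT), octamer (ATTTGCAT), TATA box (TATAAA) and GATA match (AGATAA or TGATAA), on either strand. The first 3 belong to genes whose start read toward the IP and the last 2 to genes among the 10 with the lowest highest window.
HIST3H3 (H3-4, chr1:228425361-228425560, minus strand): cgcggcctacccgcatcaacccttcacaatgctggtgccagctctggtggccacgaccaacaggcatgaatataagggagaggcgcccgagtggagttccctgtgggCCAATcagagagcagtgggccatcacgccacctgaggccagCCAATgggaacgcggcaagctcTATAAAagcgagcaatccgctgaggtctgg
HIST1H2BA (H2BC1, chr6:25726577-25726776, plus strand): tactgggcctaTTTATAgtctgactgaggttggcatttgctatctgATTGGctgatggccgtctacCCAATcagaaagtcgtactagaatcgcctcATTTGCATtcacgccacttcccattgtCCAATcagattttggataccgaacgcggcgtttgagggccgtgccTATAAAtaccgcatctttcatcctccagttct
HIST1H4E (H4C5, chr6:26204410-26204609, plus strand): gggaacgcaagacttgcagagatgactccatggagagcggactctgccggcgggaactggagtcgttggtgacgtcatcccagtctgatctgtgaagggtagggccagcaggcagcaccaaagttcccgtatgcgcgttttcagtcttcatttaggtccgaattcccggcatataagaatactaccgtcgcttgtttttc
HIST1H2BB (H2BC3, chr6:26043714-26043913, minus strand): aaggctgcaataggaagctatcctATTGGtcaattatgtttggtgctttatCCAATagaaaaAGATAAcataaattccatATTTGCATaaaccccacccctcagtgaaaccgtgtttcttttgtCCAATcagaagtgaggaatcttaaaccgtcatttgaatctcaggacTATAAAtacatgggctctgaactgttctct
HIST1H2AD (H2AC7, chr6:26199294-26199493, minus strand): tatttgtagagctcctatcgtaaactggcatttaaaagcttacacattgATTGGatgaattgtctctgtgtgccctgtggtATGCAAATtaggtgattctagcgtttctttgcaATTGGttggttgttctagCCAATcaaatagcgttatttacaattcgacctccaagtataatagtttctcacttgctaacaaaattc
The HIST3H3 stretch held CCAAT at 2 places and TATAAA at 1, and the HIST1H4E stretch held none of these letters. HIST1H2BA carried 3 CCAAT, 1 ATTTGCAT, the octamer bound by Oct factors, and 2 TATAAA. The HIST1H2BB stretch had 3 CCAAT, 1 ATTTGCAT, 1 TATAAA and 1 AGATAA.

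Over the whole 300-base promoters, CCAAT, the element bound by NF-Y, was found on either strand in 49 of 57 members (86.0%) against 35.7% of 27305 RefSeq promoters. Every H1, H2A, H2B and H3 promoter held it, but only 3 of 11 H4 promoters did. ATTTGCAT was in 24 of 57 members (42.1%) against 1.80% of all promoters, and 11 of 15 H2A and 12 of 16 H2B promoters held it. TATAAA was in 39 of 57 (68.4%) against 12.0%. The median GC content was 43% in the members and 58.3% in all promoters.

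The flanked GATA letters were about as common in the histone promoters as in all promoters. AGATAA or TGATAA was in 8 of 57 member promoters (14.0%) and in 16.6% of all promoters. The wider form, with A or T before GATA and A or G after it, contains the first and was in 16 of 57 (28.1%) against 25.5%. Bare GATA, which contains both, was in 38 of 57 (66.7%) against 50.5%. The 8 promoters with AGATAA or TGATAA were those of HIST1H1E, HIST1H2AB, HIST1H2AI, HIST1H2BB, HIST1H2BH, HIST1H3C, HIST1H4G and HIST1H4I. Only 1 of these 8 genes, HIST1H3C, had a window at least 2-fold toward the IP, compared with 18 of the 49 without these letters and 57.1% of all genes. Among the 8, HIST1H2AI had only 3 windows and HIST1H4I only 4. The comparison lacks the members without a promoter sequence, which were HIST1H2AH, HIST1H2BF, HIST1H3J, HIST1H3I, HIST1H4A and HIST1H4C. The last 3 named had such a window. A window may lie anywhere on a gene, and that of HIST1H3C was centered at 760 bp, outside the stretch searched for letters. The probes within 500 bp of the HIST1H3C start averaged 0.19. The mean of the probes within 500 bp of the start had a median of 0.24 in the 8 genes and of 0.45 in the 46 others with such a probe, and the ranges overlapped (-0.32 to 0.54 and -0.56 to 1.96). With the wider form, 4 of 16 genes that held it and 15 of 41 that did not had a window at least 2-fold toward the IP. For bare GATA the medians of the probes within 500 bp were 0.22 in 35 genes with it and 0.73 in 19 without it. These are differences between group medians of single readings, and a match in a window of this size is no measured binding site.

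Enrichment was read in windows of 3 neighboring probes on the log2 IP/IgG scale, with each array's median at 0. A window belonged to each gene that had any of its 3 probes, neighboring probes lay no more than 1000 bp apart, and a gene was called enriched when its highest window was at least 1, a 2-fold ratio. By this measure 22 of 63 histone genes (34.9%) were enriched, against 57.1% of all 17054 genes with a window. A window at least 2-fold toward the IgG was present in 15 of 63 (23.8%), against 52.9% of all genes. Thus 32 members (50.8%) stayed within 2-fold on both sides, compared with 21.3% of all genes, and 6 passed both ways. The median highest window was 0.87 against 1.09 for all genes and 1.12 for the genes of chIP1. The mean over all probes of a gene was above 0 in 36 of 63 members (57.1%) and in 51.6% of all genes, with a median of 0.04 against 0.01.

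The number of windows per gene differed as well. The members had a median of 15 windows and all genes 23, and in all genes the enriched share was higher where windows were more numerous. Among genes with 1 to 5 windows, 0 of 8 members and 15.3% of all genes were enriched. With 6 to 10 windows the numbers were 3 of 10 and 34.4%, and with 11 to 15 they were 7 of 15 and 43.9%. With 16 to 20 windows 6 of 15 members were enriched against 49.6%, and with 21 to 30 windows 5 of 13 against 60.3%. Members were thus at or near the share of all genes with 6 to 15 windows and below it in the other classes up to 30 windows. With normexp background correction 15 of 63 members (23.8%) were enriched against 33.1%, and the order of the medians turned, to 0.84 for members and 0.83 for all genes. With probes inside genes left out, 23 of 61 members (37.7%) were enriched against 39.7%, with medians of 0.82 and 0.84.

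**Figure D1:**
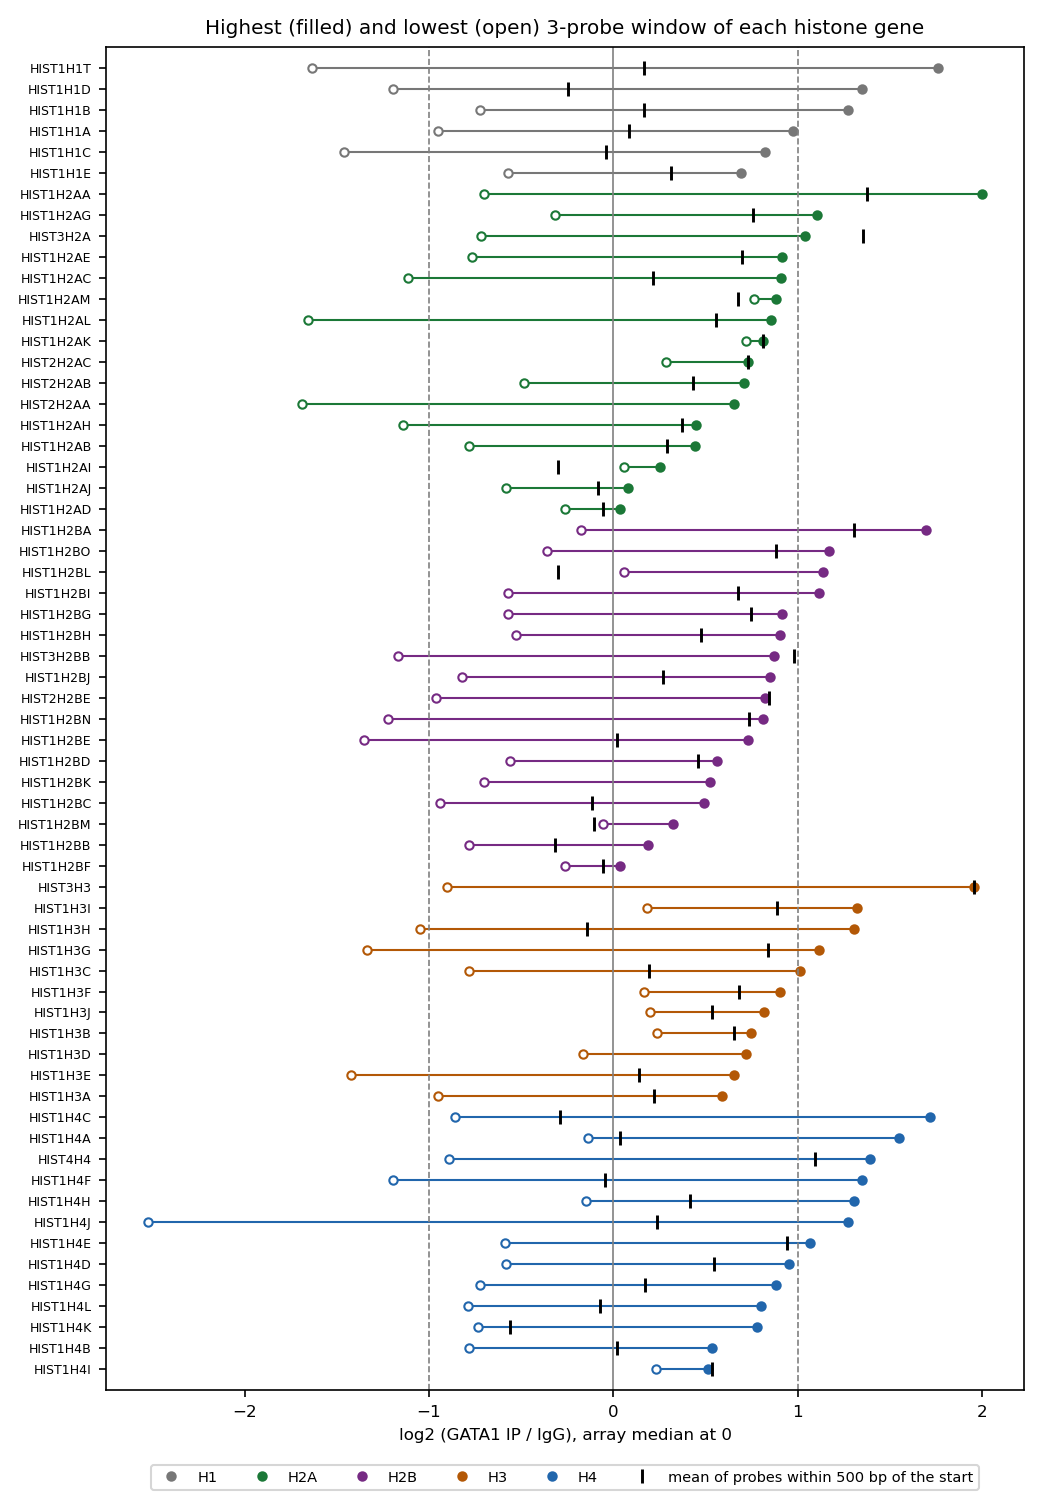
Highest window (filled circle) and lowest window (open circle) of each of the 63 histone genes as log2 GATA1 IP/IgG, colored by histone type, with the mean of the probes within 500 bp of the start as a black tick and the 2-fold limits as dashed lines. Of the 63 filled circles 22 lie at or beyond 1, and HIST1H4J has the lowest open circle, at -2.52.

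Testis histone genes held 4 of the 5 highest windows, but 1 of the 5 with normexp, 2 with probes inside genes left out, and 3 with the distance trend removed, with single probes or with windows of 5. HIST1H2AA, a testis H2A gene in the first HIST1 block, had the highest window of all members, 2.00, from probes at 1.57, 1.77 and 2.66 (chr6:25834288-25834589, inside the gene). This was the 91.0th percentile of the highest windows on its array. Its partner across the shared promoter, the testis H2B gene HIST1H2BA, reached 1.69 with probes at 2.65, 1.05 and 1.38 (chr6:25835140-25835540, inside the gene). The 2 probes in the promoter between them read 0.59 and 0.84, so that the high readings lay downstream of both starts and not between them. With the probes inside genes left out, the highest windows of these genes were 0.65 and 0.66.

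HIST3H3, the testis H3 gene of the HIST3 cluster, had a window of 1.96 over its promoter (chr1:224919388-224920049). Its only 3 probes within 500 bp read 2.30 at -266 bp, 2.77 at -64 bp and 0.80 at 351 bp. The center probe of the window was dim, at the 13.3rd percentile of intensity, and the mean over all 14 probes of HIST3H3 was 0.04. HIST1H1T, the testis linker histone gene, had 1.76 from probes of 1.61, 1.51 and 2.16, but 1643 bp downstream of its start (chr6:26214340-26214917, center probe at the 9.5th percentile of intensity). Near the start of HIST1H1T the 6 probes averaged 0.17, between -0.52 and 0.94. With normexp the highest windows were 0.54 for HIST1H1T, 1.00 for HIST1H2BA, 1.18 for HIST3H3 and 1.32 for HIST1H2AA.

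These 4 testis genes ranked 1, 5, 2 and 3 among the 63 by highest window, a grouping noticed after the values were seen and given as a description. All 4 were enriched (3 with normexp and 2 without probes inside genes). The remaining 59 members had 18 enriched genes (30.5%, against 57.1% of all genes) and a median highest window of 0.85. Near the start, 3 of the 4 had a mean of at least 1, compared with 2 of the 56 other members with a probe there and 8.02% of all genes. HIST1H2AA and HIST1H2BA share 2 of these probes and are not separate observations. The 4 genes were also dimmer, with a median intensity percentile of 20.1 against 64.9 for the other 59.

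**Figure D2:**
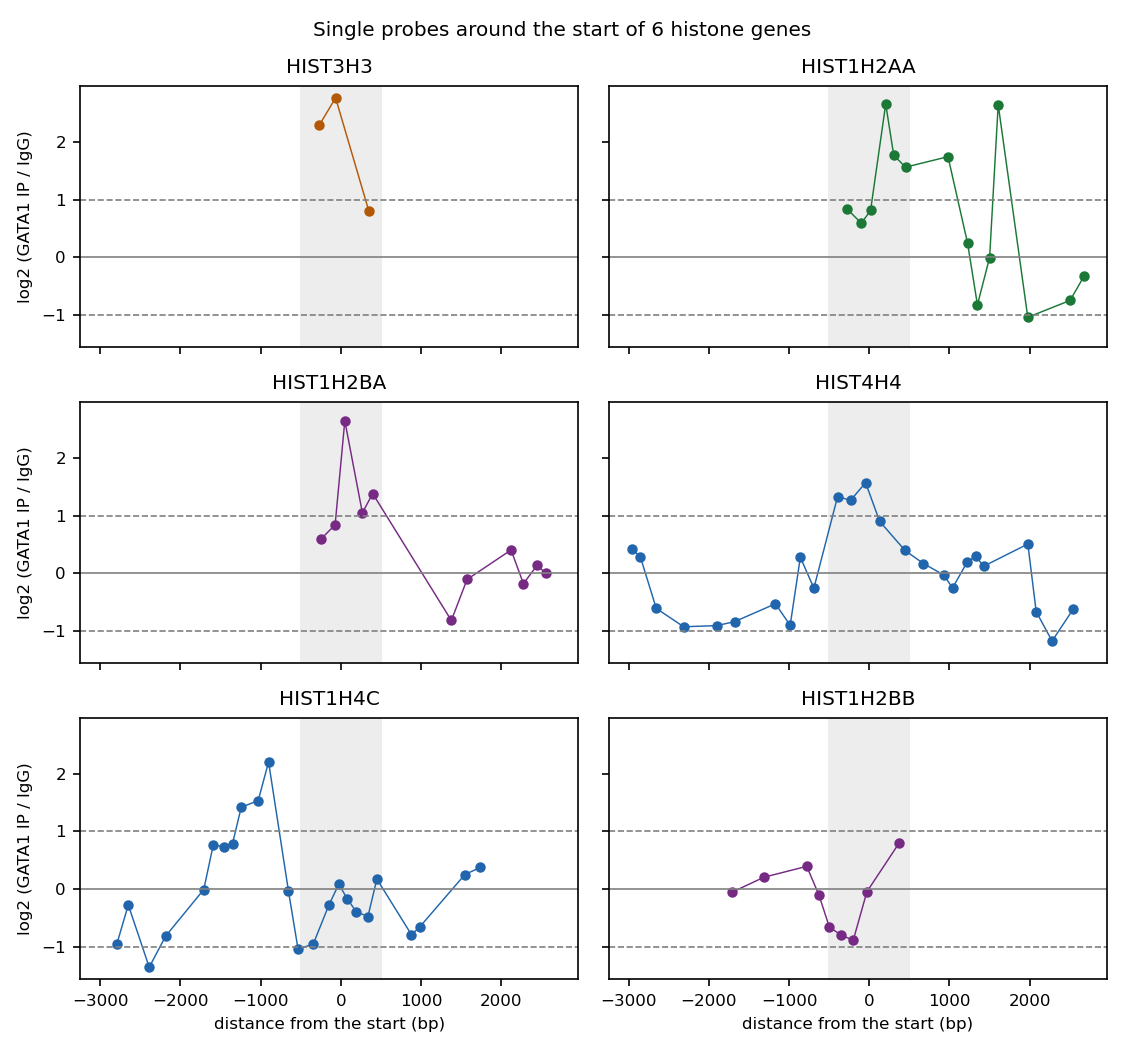
Log2 GATA1 IP/IgG of single probes against distance from the annotated start in bp (negative upstream) for 6 histone genes, with the 1000 bp around the start shaded and the 2-fold limits dashed. HIST3H3 and HIST4H4 peak at the start, and HIST1H2AA and HIST1H2BA just downstream of it. HIST1H2AA has a second probe about as high, 2.65 at 1608 bp, beside 2.66 at 205 bp. HIST1H4C peaks at -900 bp, and HIST1H2BB stays below 0 from -498 to -30 bp.

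Of the other enriched members, 7 were H4 and 4 were H3 genes. HIST1H4C had 1.72 (probes 1.42, 1.53 and 2.21) centered at -1030 bp (chr6:26210884-26211284), whereas its 7 probes within 500 bp averaged -0.29. HIST1H4A had 1.55 at 1743 bp downstream (chr6:26131480-26131873), with probes of 0.98, 1.67 and 2.00 and a near-start mean of 0.03. In both H4 genes the high reading was thus away from the start. HIST4H4, the isolated H4 gene on chromosome 12, read 1.39 at -233 bp, with probes of 1.57, 1.27 and 1.33 (chr12:14815354-14815757). Its 5 near-start probes were all above 0 and averaged 1.09. The window lies in the stretch annotated as a promoter shared with H2AFJ, a replication-independent H2A gene, but at -2996 bp from the H2AFJ start. HIST1H1D and HIST1H4F shared 1 window of 1.35 in the stretch between them that the array annotates as their promoter (chr6:26346356-26347087). This window was centered at -3703 bp from the start of HIST1H1D and at -1734 bp from that of HIST1H4F. Its probes were uneven at 1.10, 2.49 and 0.46, its center probe was at the 10.3rd percentile of intensity, and the starts of both genes averaged below 0 (-0.25 and -0.05).

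HIST1H3I had 1.32 directly at its start (chr6:27947614-27948302), where the probes at -194 and -30 bp read 1.37 and 2.03. The center probe of this window was bright (78.3rd percentile of intensity), and its dimmest probe was at the 56.3rd percentile. The window of 1.27 assigned to HIST1H1B overlapped this one and was centered on a HIST1H3I probe, while the 6 probes at the start of HIST1H1B averaged 0.17. HIST1H4E, at 1.07, was even around its start, with 5 probes from 0.43 to 1.32 and a mean of 0.94. HIST3H2A reached 1.04 at 985 bp downstream, and its 1 near-start probe, shared with HIST3H2BB, read 1.35. HIST3H2BB itself had a highest window of 0.87 and a lowest of -1.17. HIST1H3I, HIST1H1B, HIST1H4C, HIST3H3 and HIST4H4 were enriched under all 10 processing alternatives that kept the 2-fold limit. Of these alternatives, the deposited series ratios, the other filters on dim probes and single probes each kept all 22 enriched members. They did not tell members apart.

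Of the 10 members with the lowest highest window, all but HIST1H4I were H2A or H2B genes. HIST1H2AD and HIST1H2BF share a promoter with 2 probes, at -0.24 and 0.13, and their highest window was 0.04. HIST1H2AJ had 0.08, HIST1H2BB 0.19, HIST1H2AI 0.25 and HIST1H2BM 0.32. The probes of HIST1H2BB at -498, -350 and -200 bp read -0.66, -0.80 and -0.89, although its promoter is one of the 8 with AGATAA or TGATAA. HIST1H2AB, HIST1H2AH, HIST1H2BC and HIST1H4I followed, from 0.44 to 0.51. Of these 10 genes, HIST1H2AI had 1 probe and HIST1H2AD, HIST1H2BF and HIST1H2BM had 2 each, so that few readings stand behind them. The highest windows of HIST1H2BB, HIST1H2AI, HIST1H2BM, HIST1H2AB and HIST1H4I were centered on a probe of a neighboring gene. The probe of HIST1H2AI itself read -0.30, and the 2 of HIST1H2BM averaged -0.10.

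Toward the IgG, the most extreme window belonged to HIST1H4J, at -2.52 with probes of -1.37, -2.27 and -3.93. It lay at -3086 bp (chr6:27896613-27897159), its center probe was dim (2.68th percentile of intensity), and with windows of 5 probes the lowest value of this gene was -0.04. HIST2H2AA, an H2A gene present as 2 annotated copies, had -1.69 with even probes of -1.67, -1.57 and -1.82 (chr1:146628301-146628583). HIST1H2AL (-1.65), HIST1H1T (-1.63) and HIST1H1C (-1.46) had their lowest windows at -4640, -3552 and -4276 bp. HIST2H2AA has near-identical copies, and its 26 probes lay between the starts of the copies, none within 500 bp of either.

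Windows past 2-fold were placed differently by distance. For these counts a window was assigned by its center probe only, unlike in the gene calls. So counted, the 63 genes had 827 windows, 40 toward the IP (4.84%, against 7.62% of 415403 windows) and 39 toward the IgG (4.72%, against 9.65%). Neighboring windows share probes, so a high probe can enter several of them. Within 500 bp of a start 16 of 182 windows passed toward the IP (8.79%, against 10.4% of 78993 windows) and 1 toward the IgG (0.549%, against 4.13%). Beyond 2000 bp upstream the order turned, with 1 of 141 windows toward the IP (0.709%, against 6.57%) and 25 toward the IgG (17.7%, against 14.8%). Between 500 and 2000 bp upstream 9 of 144 windows passed toward the IP (6.25%, against 7.25%) and 3 toward the IgG (2.08%, against 9.33%). Between 500 and 2000 bp downstream 12 of 224 passed toward the IP (5.36%, against 7.35%) and 4 toward the IgG (1.79%, against 8.00%). Beyond 2000 bp downstream there were 2 of 136 (1.47%, against 6.67%) and 6 (4.41%, against 11.3%).

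**Figure D3:**
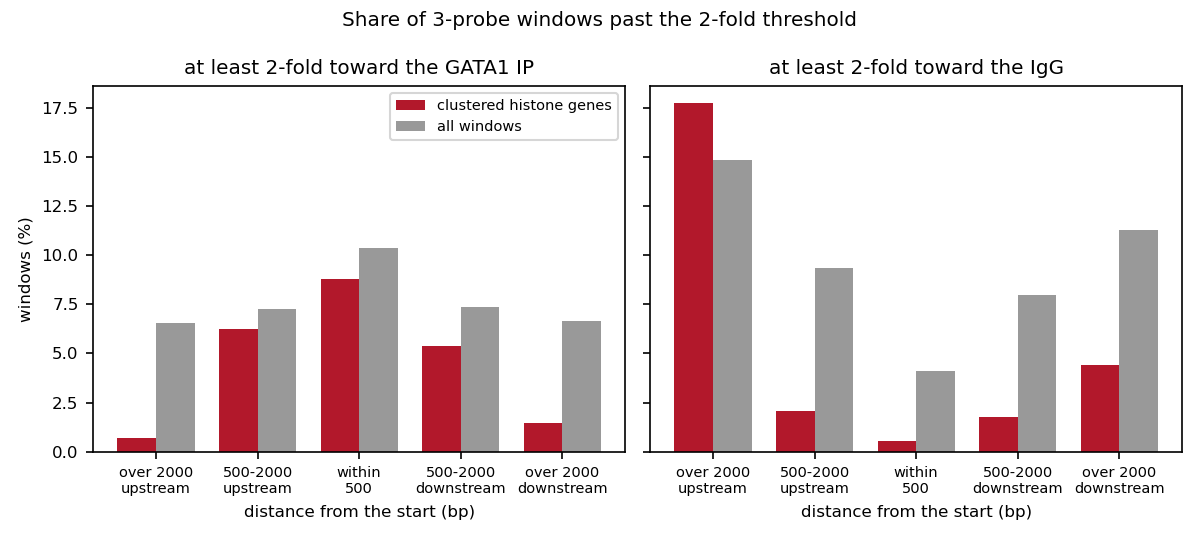
Percent of 3-probe windows at least 2-fold toward the GATA1 IP (left) and toward the IgG (right) in 5 classes of distance from the start, for the histone genes (red) and for all windows (gray). On the IP side the histone bars are below the gray bars in every class, from 8.79% against 10.4% within 500 bp to 0.709% against 6.57% beyond 2000 bp upstream, and on the IgG side they exceed gray only beyond 2000 bp upstream (17.7% against 14.8%).

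The probes showed the same course. Here a probe was counted once for each gene start it was assigned to, so probes of shared promoters enter more than once. From 500 bp upstream to the start the 118 member entries averaged 0.42 (SD 0.72), and in the 500 bp after it 85 entries averaged 0.36 (SD 0.71). All genes of chIP1 averaged 0.29 and 0.28 in these steps. From 3000 to 2500 bp upstream the 29 member entries averaged -0.49 (SD 1.06) against -0.18. Signal intensity moved with distance as well: the mean log2 signal of the member entries rose from 8.76 in the outer upstream step to 10.8 just before the start. All genes of chIP1 went from 9.34 to 10.3. The part of intensity in the log ratios was not tested. All windows were also divided into 4 classes of equal size by intensity. Neighboring windows overlap and share probes, so the counts below are not counts of separate readings or of genes. Within 500 bp of a start, the dimmest class held 7 member windows, 3 of them on the IP side (42.9%, against 12.5% of all near-start windows of that class), and the next held 21 with 7 (33.3%, against 8.77%). The third held 45 with 2 (4.44%, against 8.34%), and the brightest held 109 with 4 (3.67%, against 11.6%). The IP-side share of the histone windows was thus above that of all windows in the dimmer classes, which held few of them, and below it in the brighter classes, which held most. Loess correction for intensity left the near-start count at 16 of 182.

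**Figure D4:**
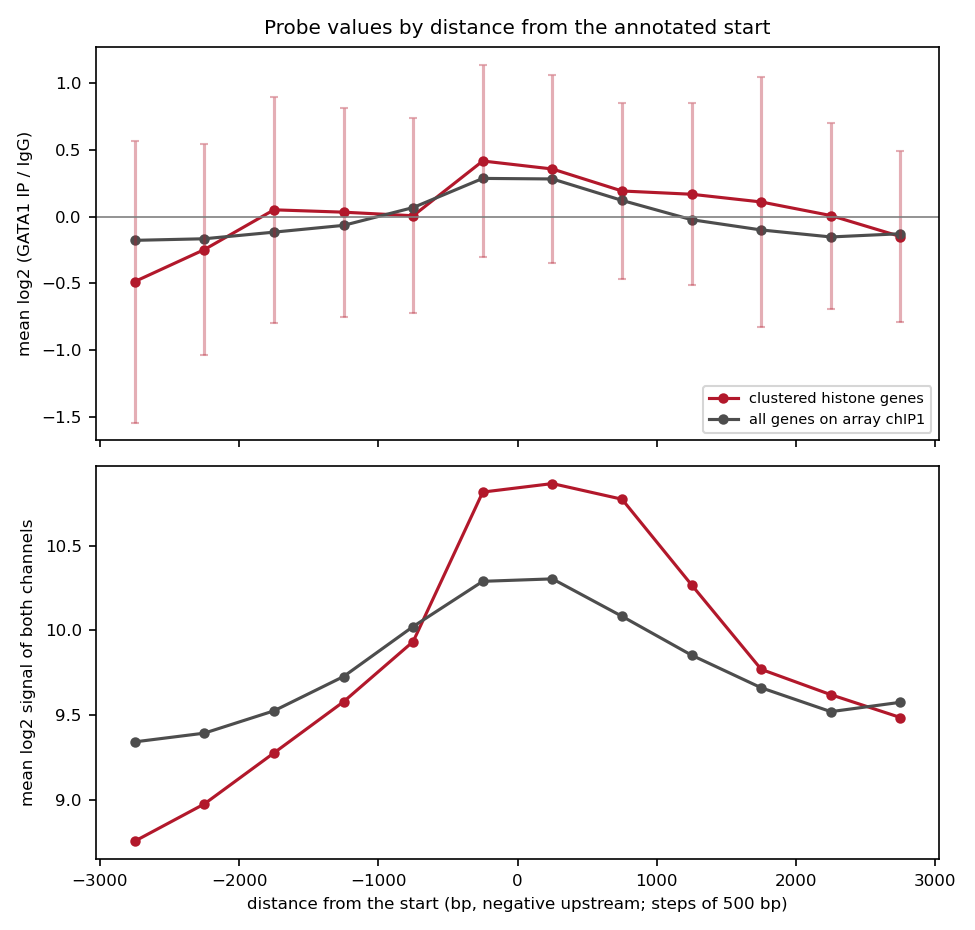
Mean log2 GATA1 IP/IgG (top, bars are the SD over member entries) and mean log2 signal of both channels (bottom) in 500 bp steps of distance from the start, for the histone genes (red) and all genes of chIP1 (gray). A probe is counted once for each gene start it is assigned to. Both curves peak next to the start, at 0.42 and 0.29, and the histone probes are brighter there (10.8 against 10.3) and dimmer beyond 2500 bp upstream (8.76 against 9.34).

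Histone types differed in the level at the start, with wide overlap. The H1 genes were lowest: the median of their near-start means was 0.13, the highest of the 6 was 0.31 (HIST1H1E), and none of their 33 near-start windows was on the IP side. H4 genes had a median of 0.17 (13 genes, from -0.56 to 1.09). H2B genes had 0.47 (16 genes, from -0.32 to 1.30), H2A genes 0.56 (15 genes, from -0.30 to 1.38) and H3 genes 0.59 (10 genes, from -0.14 to 1.96). The median of all 16724 genes with a near-start probe was 0.29, and that of the 60 members with one was 0.34. A mean of at least 1 was found in 5 of the 60 (8.33%) and in 8.02% of all genes. HIST1H3D, HIST1H2BK and HIST2H2AA had no such probe.

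**Figure D5:**
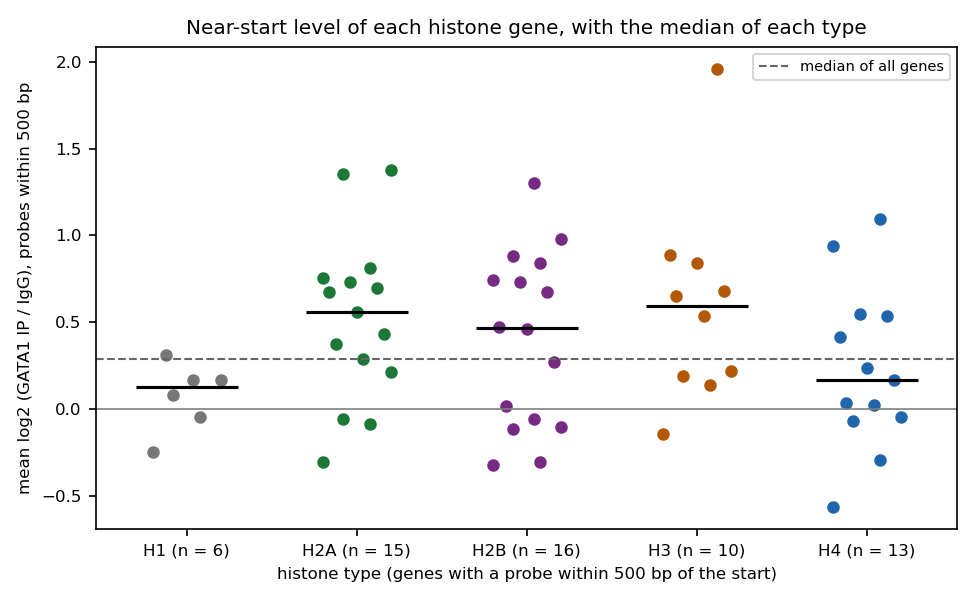
Mean log2 GATA1 IP/IgG of the probes within 500 bp of the start for each of 60 histone genes, by histone type, with the median of each type (black line) and of all genes (dashed, 0.29). The 6 H1 genes lie between -0.25 and 0.31, and the H2A, H2B, H3 and H4 genes spread from below 0 to above 1.

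Counted by whether any window was enriched, the order was another one: 3 of 6 H1, 7 of 13 H4, 5 of 11 H3, 4 of 17 H2B and 3 of 16 H2A genes were enriched, which are shares of 50%, 53.8%, 45.5%, 23.5% and 18.8% against 57.1% of all genes. The H1 genes had the most windows (median 25.5) and the H2A genes the fewest (10.5), and the part of this difference in the counts was not tested. A window toward the IgG was present in 3 H1 (50%), 4 H2A (25%), 3 H2B (17.6%), 3 H3 (27.3%) and 2 H4 genes (15.4%). Over all genes this share was 52.9%. By cluster, 19 of 55 HIST1, 0 of 4 HIST2, 2 of 3 HIST3 genes and the HIST4 gene were enriched, beside 57.1% of all genes. The HIST2 genes reached 0.82 (HIST2H2BE), 0.73 (HIST2H2AC), 0.71 (HIST2H2AB) and 0.66 (HIST2H2AA). Within HIST1, both genes of the first block, 10 of 32 of the second, 1 of 5 of the third and 6 of 16 of the fourth were enriched, that is 31.2%, 20% and 37.5% in the last 3 blocks.

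Genes that share a promoter share readings and are not separate observations. In 7 of the shared promoters, that of HIST4H4 and H2AFJ included, the highest window was the same for both genes. The promoter between HIST1H3G and HIST1H2BI had 7 shared probes with a mean of 0.76 (SD 0.87), and that between HIST1H3F and HIST1H2BH had 6 with a mean of 0.62 (SD 0.58). By contrast, the 14 probes between HIST1H1A and HIST1H3A averaged -0.28 (SD 0.56), and the 8 between HIST1H2BB and HIST1H3C averaged -0.24 (SD 0.48). When probes of more than 1 gene were left out, 18 of 60 members were enriched, and HIST1H1D, HIST1H4F, HIST1H3G and HIST1H2BI no longer were. With those probes kept, the share was 34.9% of members and 57.1% of all genes.

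Related genes were enriched about as often as all genes, with shares of 60% to 63.9% in 3 related lists against 57.1%. Replication-independent histone genes, which encode variants made outside S phase, had 9 of 15 enriched, led by H3F3B (2.59), H2AFZ (2.02), H2AFV (1.97) and H2BFWT (1.90). In H3F3B, H2AFZ and H2AFV the windows were centered at -223, -196 and -226 bp from the start. Genes for histone transcription, transcript processing and chromatin assembly had 23 of 36 enriched, led by CHAF1A (2.33), a chromatin assembly factor subunit, CSTF2 (2.28), a cleavage factor, E2F3 (1.96) and NCBP1 (1.96), a cap-binding protein. Ribosomal protein genes, which like histone genes are short and highly transcribed, had 51 of 83 enriched with a median of 16 windows, led by RPS3A (2.25), RPL13A (1.97), RPL22 (1.84) and RPL9 (1.74). All genes with 16 to 20 windows had 49.6% enriched. The near-start means of the ribosomal protein genes had a median of 0.77, and 26 of 81 (32.1%) were at least 1, against 0.29 and 8.02% for all genes. A near-start mean of at least 1 was found in 4 of 14 replication-independent histone genes (28.6%) and in 3 of 36 genes of histone expression (8.33%). HFE, an iron homeostasis gene within a histone block, had windows from -1.72 to 1.33.

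Members that are also named on a list from separate expression arrays of GATA1 knockdown cells were 7 in number. On the promoter arrays, HIST1H2BI and HIST1H3G shared a window of 1.12 (probes 2.55, 0.67 and 0.12, the first of which carried it), and HIST1H2AG had 1.10. HIST2H2BE, HIST1H2AK, HIST1H2BN and HIST1H2BE stayed between 0.73 and 0.82, so 3 of the 7 were enriched (42.9%), between the 34.9% of all members and the 57.1% of all genes. The near-start means of the 7 genes lay between 0.02 (HIST1H2BE) and 0.84 (HIST1H3G and HIST2H2BE). In HIST1H3G this was the mean of only 2 probes that went opposite ways, at -0.87 and 2.55, and in HIST2H2BE of 2 probes at 0.56 and 1.13. HIST1H3G also had a window of -1.34.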

How the data were processed

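DNA from untreated Meg-01 cells was measured on 2 Agilent promoter arrays. Per the file headers, the authors extracted the scans with Agilent Feature Extraction 9.5.3.1. The deposited processed intensity of each channel had been corrected for spatial and multiplicative trends and scaled between dyes by a linear factor, without subtraction of local background, and small signals had been replaced by surrogates. The deposited series table of log10 ratios equals the scanner log10 ratio of Cy5 over Cy3 and served as an alternative. The authors' own peak calls, made in Agilent's Chip Analytics with the Whitehead error model and Peak Shape Detection per the study's methods, were not used. The genome build of the array design is not given in the sources used here.

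Values were log2 of the Cy5 over the Cy3 processed signal, and each array was centered on its median. Control spots, outlier spots and probes not well above background in either channel were left out, which kept 237004 of 237210 probes on chIP1 and 236864 of 237201 on chIP2. The 3-probe windows, the 1000 bp limit between neighbors and the 2-fold limit were the main settings. Their error rate at the probe SD of these arrays (0.97 on chIP1 and on chIP2) was not tested. Genes came from the accession column of the arrays. With 1 reading per probe no test was run, and lists are described by counts and medians beside all genes. Current symbols came from RefSeq by accession for 60 members and by symbol for 2. Named were the 10 members with the highest window, the 10 with the lowest highest window, all HIST3 and HIST4 genes, the extremes of each histone type, the 5 lowest windows, up to 4 leading genes of each related list, the 7 members on the study's expression list, and examples of shared promoters and of promoter letters. The members and lists were chosen with earlier results of these data known. Alternatives were loess (limma 3.58.1, span 0.3), normexp with offset 50, the series table, other probe filters, a distance trend removed in 500 bp steps to 6000 bp, other window sizes (1 and 5 probes) and other fold limits (1.5 and 3). Python 3.11.15 and R 4.3.3 were used.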

Additional observations from a re-analysis of the deposited data

How the results depend on the processing

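No paired analysis was possible because the arrays have no probe in common and nothing was tested across samples. The count of enriched members stayed within 1.5 times of 22, from 15 to 23, under loess, normexp, the series table, both probe filters, removal of the distance trend, and omission of probes inside genes or of probes of more than 1 gene. It was 46 of 63 with single probes (86.1% of all genes), 9 with windows of 5 probes (34.1%), 50 at 1.5-fold (85.0%) and 5 at 3-fold (20.6%). The depleted count of 15 was 5 with normexp, 35 with single probes, 9 with windows of 5, 36 at 1.5-fold and 4 at 3-fold, and from 14 to 17 otherwise. The depleted share of members and of all genes was 23.8% and 52.9% in the main setting. It was 22.2% and 49.9% with loess, and 7.94% and 23.9% with normexp. Near the start the IP-side count of 16 was 10 without probes inside genes, 27 with single probes, 56 at 1.5-fold and 5 at 3-fold, and the IgG-side count of 1 was 0 with normexp, without probes inside genes, with windows of 5 and at 3-fold, 2 with the distance trend removed and 4 at 1.5-fold. For these near-start counts the share over all windows was taken in the main setting only, so the alternatives describe the members alone. The median highest window was 1.34 with single probes and 0.73 with windows of 5, against 1.73 and 0.81 for all genes. The share of promoters with the GATA letters was 28.1% with the wider form. No called value changed sign, although under normexp the median of the members moved from below to above that of all genes (0.84 and 0.83). Of 22 enriched members, 11 remained so with normexp, 16 with the distance trend removed and 9 with windows of 5 probes. All 22 remained so with the series table, both probe filters and single probes, which therefore did not tell members apart. In all, 5 were enriched under each of the 10 alternatives to the values, probes and window size. The alternatives that move the most calls change the window size, the limit or the background correction, and the cause was not tested. One hybridization per array limits every value.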
